A study of Mus musculus with 18 samples.

Results

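The replication-dependent histone genes are the clustered genes that code for the canonical linker histone H1 and the core histones H2A, H2B, H3 and H4. They were taken as every gene whose symbol began with Hist1h, Hist2h, Hist3h or Hist4h, which gave 67 of the 22558 genes in each deposited gene table. Of these, 53 lay in the Hist1 cluster on chromosome 13, 10 in the Hist2 cluster on chromosome 3, 3 in the Hist3 cluster on chromosome 11 and 1, Hist4h4, on chromosome 6. By the class in the symbol, 6 coded for H1, 18 for H2A, 18 for H2B, 12 for H3 and 13 for H4. The symbols also cover the pseudogenes Hist2h3c2-ps and Hist3h2bb-ps.

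RNA was sequenced from the RPE/choroid (the retinal pigment epithelium with the vascular layer behind it) and the retina of mice aged 30 days on a mixed 129SV and C57BL/6 background. In each tissue 3 libraries came from Abca4-/- mice (KO), 3 from mice homozygous for the Abca4 knock-in allele L541P;A1038V (KI) and 3 from wild-type mice (WT). Abca4 codes for a transporter of retinoids in photoreceptor outer segments. Nothing in the labels ties each library to its own animal, and the spread behind every p-value below is that among libraries, which may be technical. Total RNA was depleted of ribosomal RNA and was not selected for poly(A) tails.

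Replication-dependent histone genes are transcribed mainly in S phase, when new DNA has to be packed into nucleosomes. Most of their mRNAs carry no poly(A) tail and end just after a short stem-loop, which the stem-loop binding protein holds and which is cut with the help of the U7 snRNP. In tissues made largely of cells that no longer divide, some of these genes also give longer transcripts with a poly(A) tail.

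The stem-loop was searched for as GGNNCTTTTNANNNCC in the GENCODE M21 transcripts, on the transcript strand, because it is the feature that sets these mRNAs apart. It was found in 43 of the 66 members with a transcript there, against 74 of 21812 other protein-coding genes (0.34%), and on the opposite strand in 79 of those others (0.36%). No match says only that these letters were not in the annotated transcript. The forms follow the class: 25 H1, H2A, H2B and H3 members had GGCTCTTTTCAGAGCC, and 7 of the 11 H4 members with a match had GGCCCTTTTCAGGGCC. The following windows, with the stem-loop in capitals and 5 bases on each side, come from both genes that passed the test in KO RPE/choroid, an H4 gene that went the other way there, and the H2A gene that passed in KI retina.
Hist4h4 (chromosome 6): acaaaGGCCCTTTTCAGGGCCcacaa
Hist1h4j (chromosome 13): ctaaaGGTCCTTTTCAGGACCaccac
Hist1h4i (chromosome 13): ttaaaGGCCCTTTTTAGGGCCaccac
Hist3h2a (chromosome 11): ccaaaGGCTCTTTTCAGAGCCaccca
The stem-loop ended 385 bases before the end of the Hist1h4j transcript, 330 before that of Hist1h4i, 1643 before that of Hist3h2a and 2445 before that of Hist4h4. In these annotated transcripts each of these 4 genes therefore runs on well past the stem-loop.

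The H4 genes also share a sequence upstream of their start. GGTCCG, the core of an element that is known from H4 promoters and is bound there by HINFP, was present in the 250 bases before the start in 9 of 12 H4 members with a RefSeq promoter (75.0%), in 1 H2B and 1 H3 member, and in no H1 or H2A member, on either strand. Among 26964 other genes it was present on either strand in 6.8%. CCAAT was present on either strand in 82.0% of 61 members and 34.4% of other genes, and TATAAA in 47.5% and 12.9%. CCAAT was found in 3 of the 12 H4 promoters, in 8 of 10 H3 promoters and in every H1, H2A and H2B promoter searched. The 110 bases before the start are shown for the same 3 H4 genes and for Hist1h4d, which holds all 3 motifs, with the motifs in capitals (RefSeq, GRCm38.p6; overlapping motifs were not found in these 4).
Hist4h4, chr6:136804432-136804541, minus strand: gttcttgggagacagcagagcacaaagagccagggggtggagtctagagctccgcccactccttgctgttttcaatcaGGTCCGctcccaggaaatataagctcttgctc
Hist1h4j, chr13:21734924-21735033, plus strand: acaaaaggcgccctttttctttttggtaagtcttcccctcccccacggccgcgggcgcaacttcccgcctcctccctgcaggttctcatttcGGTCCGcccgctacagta
Hist1h4i, chr13:22041363-22041472, minus strand: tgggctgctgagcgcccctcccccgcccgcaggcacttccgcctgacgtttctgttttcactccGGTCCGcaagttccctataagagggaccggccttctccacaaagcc
Hist1h4d, chr13:23581458-23581567, plus strand: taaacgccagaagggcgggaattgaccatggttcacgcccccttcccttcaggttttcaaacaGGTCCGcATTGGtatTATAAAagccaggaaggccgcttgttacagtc
A match is a run of letters and not a site shown to be bound.

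The libraries held 14621635 to 30048059 fragments in RPE/choroid and 11553291 to 23579152 in retina. Abca4 was at 190 to 192 counts per 1000000 fragments (CPM) in KO, 264 to 303 in KI and 253 to 440 in WT RPE/choroid, and at 521 to 596 CPM in KO, 1386 to 1714 in KI and 1747 to 1991 in WT retina. The 9 RPE markers summed to 9554 to 13633 CPM in RPE/choroid and 461 to 633 in retina. The 8 rod markers summed to 209 to 953 CPM in 8 RPE/choroid libraries and 5170 in WT library 2, and to 50112 to 55748 in retina. That WT library therefore holds more rod RNA than the others, and KO against WT in RPE/choroid is also given without it. Libraries are named by the number in the deposited tables, 0 to 2. The labels do not say whether a number pairs libraries across groups, and the main fits do not use it.

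Most members were measured in both tissues, and their levels ranged widely. No fragment was assigned to Hist1h2ad or Hist1h2ap in any of the 18 libraries, and 7 members had 1 to 30 fragments in all. Hist1h2ba and Hist1h2aa, H2B and H2A genes known from testis, had 2 and 1 fragments in the 9 retina libraries and none in RPE/choroid, and Hist1h1t, the testis H1, had 17 in RPE/choroid and 47 in retina. Per length, in FPKM (fragments per kilobase of transcript and 1000000 fragments), the highest median in RPE/choroid was that of Hist1h4h and the 3 highest in retina were those of Hist1h4a, Hist1h4d and Hist1h4h, all H4 genes. Hist1h4h had 115 to 275 FPKM in RPE/choroid (median 203) and 271 to 393 in retina (median 339). Hist1h4d had 112 to 251 FPKM in RPE/choroid (median 170) and 307 to 423 in retina (median 398), and Hist1h4a had 46.4 to 129 (median 77.1) against 384 to 583 (median 511). These ranges overlapped among the 3 genes in retina, and their order within each library was not compared.

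The leading genes of the other classes stood below Hist1h4h in both tissues by their medians, but several stood above Hist1h4a in RPE/choroid. Hist1h1c, a linker histone gene, had 96.5 to 140 FPKM in RPE/choroid (median 116) and 175 to 251 in retina (median 194), followed by Hist1h1e at medians of 42.2 and 69.0 and Hist1h1a at 19.9 and 52.7 FPKM. Hist2h2bb and Hist1h2bc led H2B at medians of 124 and 119 FPKM in RPE/choroid and 154 and 147 in retina. Next in H2B stood Hist1h2bg in RPE/choroid at a median of 28.2 FPKM and Hist1h2bb in retina at 98.1 FPKM. Hist1h3e led H3 at a median of 48.0 FPKM in RPE/choroid and 145 in retina. H2A was led by Hist2h2ac in RPE/choroid (median 60.8 FPKM) and by Hist3h2a in retina (median 82.0 FPKM), with Hist1h2ak after them in both at medians of 16.1 and 25.3 FPKM. The next H3 genes were much lower than Hist1h3e: Hist1h3i had medians of 15.4 and 24.8 FPKM, Hist1h3f 16.0 and 28.2 FPKM and Hist1h3c 17.9 and 1.07 FPKM in RPE/choroid and retina. FPKM of short genes carries an error of its own here: for genes of 300 to 320 bases, the length behind the deposited FPKM was 170 to 178 bases in the RPE/choroid libraries numbered 2 and 108 to 136 in the other 15. The same fragments thus gave a lower FPKM in those 3 libraries, and comparisons below use fragments.

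Near-identical copies limit what a single member's value means. Of 66 members, 27 shared over 50% of their 100-base windows with a transcript of another gene, and only 6 shared none, among them Hist2h2be, Hist1h4d and Hist2h4. Hist1h2ap shared 92.2% of its windows, chiefly with Hist1h2ao, and Hist1h2ad shared 63.6%. Hist1h4n shared 80.7%, chiefly with Hist1h4m, and had 73 fragments in KO, 59 in KI and 9 in WT retina library 1, and 0 in the other 15 libraries. Values of such members are uncertain, since the deposited counting could split fragments between copies. Hist1h4j shared 19.0% of its windows, Hist4h4 4.5%, Hist1h4i 15.1% and Hist3h2a 29.8%, the last mostly with Trim17 transcripts. All these shares are of the GENCODE transcripts. The authors' annotation gave shorter transcripts for Hist1h4j, Hist1h4i and Hist3h2a, and the gap was widest for Hist1h4j. The windows that Hist1h4j shared were chiefly those of other H4 genes. Its share within the shorter transcript that was counted may be higher, and this was not tested.

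Summed over all members, histone fragments were 660, 714 and 634 CPM in KO RPE/choroid, 606, 658 and 842 CPM in KI, and 796, 785 and 932 CPM in WT. All 3 KO libraries were below all 3 WT libraries, while KI library 2 stood with WT. The mean was 669 ± 41 CPM in KO, 702 ± 124 in KI and 838 ± 82 in WT (SD, n = 3 each). By the difference of mean log2 CPM, KO was at 80.1% of WT. In bulk tissue, fewer cells with histone mRNA and less of it per cell cannot be told apart. The gap was widest in H4: the H4 genes summed to 151, 164 and 136 CPM in KO, 133, 143 and 253 CPM in KI and 232, 221 and 293 CPM in WT. By the same measure KO was at 60.7% of WT for H4, 80.7% for H2B, 79.6% for H3, 89.2% for H2A and 95.6% for H1. The KO and WT libraries did not overlap for H4 and H2B. The log2 difference of KO from WT was -0.32 for all members and -0.72 for H4, and without WT library 2 it was -0.24 and -0.60.

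**Figure D1:**
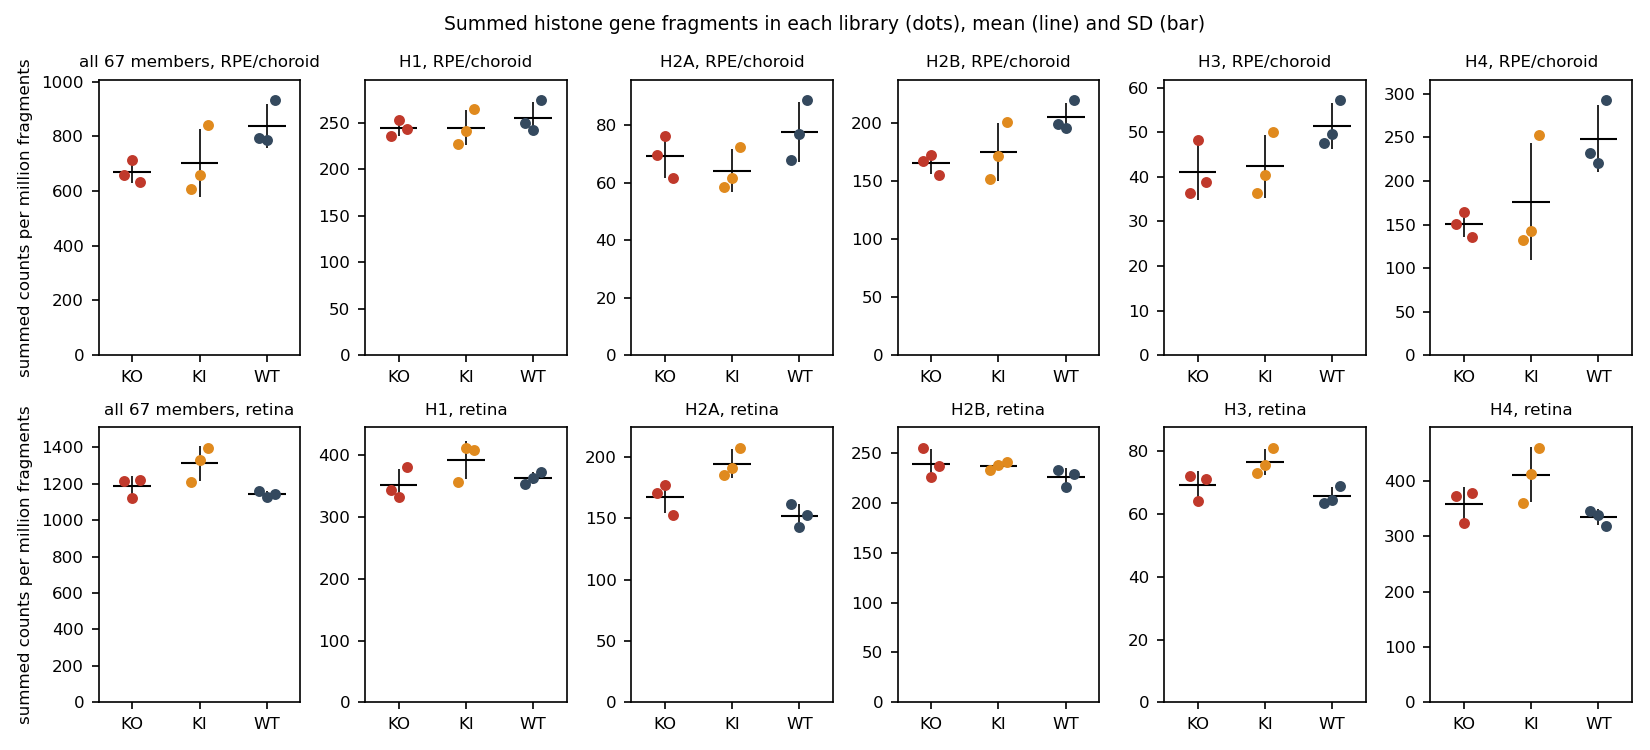
Summed CPM (y axes, from 0) of all 67 members and of each class, in KO, KI and WT libraries of RPE/choroid (top) and retina (bottom). Dots are libraries, lines are means and bars are SD (n = 3 each). In RPE/choroid the H4 sums of KO lie at 136 to 164, below those of WT at 221 to 293, and 1 KI library lies at 253.

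Member by member, KO RPE/choroid was lower than WT for nearly all genes, but few passed the test. Of 51 members tested, 47 had a log2 change below 0, against 53.5% of all 15454 genes tested, and the median was -0.54 against -0.01 for all genes. The KO libraries lay wholly below the WT libraries for 24 members, where 11.5% of all genes did so, and wholly above for 2, where 10.3% did. An unadjusted p under 0.05 was reached by 25 lower members (background 8.26%) and 1 higher member (background 7.27%). After Benjamini-Hochberg adjustment over all genes in edgeR's quasi-likelihood test, 2 members passed at 0.05, both lower and both H4 genes (background 0.252%), and none passed higher (background 0.22%). By class, the members lower at an unadjusted p under 0.05 were 10 of 12 tested for H4, 8 of 14 for H2B, 3 of 11 for H3, 3 of 9 for H2A and 1 of 5 for H1. The class medians were -0.80 for H4, -0.59 for H2B, -0.48 for H3, -0.38 for H2A and -0.16 for H1.

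Hist4h4 (mm9 chr6:136750074-136752952, a single block of 2879 bases in the authors' annotation) is the lone H4 gene outside the large clusters. It had 21.9, 25.6 and 22.0 CPM in KO RPE/choroid, 21.5, 32.3 and 39.6 in KI and 53.1, 52.0 and 65.2 in WT. Every KO and KI library was below every WT library. Hist4h4 fell in KO by 1.32 on the log2 scale (SE 0.20, edgeR adjusted p = 0.0403), while in KI the log2 change was -0.88 (SE 0.19, edgeR adjusted p = 0.668). Hist1h4j (mm9 chr13:21826965-21827276), which codes for the same H4 protein, had 5, 4 and 4 fragments in KO, 15, 16 and 5 in KI and 31, 40 and 32 in WT. These are few fragments, but no KO library came near WT. Hist1h4j fell in KO by 2.96 on the log2 scale (SE 0.46, edgeR adjusted p = 0.0316). In KI its log2 change was -1.21 (SE 0.40, edgeR adjusted p = 0.800).

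Both calls were close to the threshold. Leaving out 1 library at a time, neither was called without any one of the KO libraries or without WT library 0 or 1, and both were called without WT library 2, where 4 members passed. Leaving out that library, the one with most rod RNA, raised the calls over all genes too, to 462 of 15575 (2.97%) against 73 of 15454 with it. In that fit 18 members reached an unadjusted p under 0.05, as did 22.1% of all genes, and the members' median was -0.43. Of the 18 members, 17 were lower, where 11% of all genes were lower at that p. DESeq2 called 9 members, all lower, and gave Hist1h4j no adjusted p, and it called 538 genes in all, 3.71% of those it gave an adjusted p. By limma on log2(FPKM + 1) or log2(FPKM + 0.1) no member was called, where 17 and 21 genes were called in all. With the library number as a replicate block, no member was called either, and 28 genes were called in all. The labels do not say whether a number pairs libraries.

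Next in order of p came Hist1h2bg, an H2B gene, at 9.10, 9.84 and 8.19 CPM in KO, 9.75, 11.1 and 12.5 in KI and 13.3, 13.3 and 13.3 in WT RPE/choroid. Its log2 change in KO was -0.58 (SE 0.11, edgeR adjusted p = 0.0607). Hist1h4i (mm9 chr13:22132685-22133221) lay apart from the rest of H4. It had 26.0, 26.6 and 19.5 CPM in KO, 15.0, 11.4 and 29.8 in KI and 15.7, 15.0 and 18.8 in WT RPE/choroid, so all KO libraries were above all WT libraries by a small margin. Its log2 change was 0.52 (SE 0.32, edgeR adjusted p = 0.474), and it was singled out after its values were seen. In the authors' deposited table, 8 members were called lower and 1, Hist1h4i, higher in KO than in WT RPE/choroid. Over all genes, the authors' deposited table calls 430 of 14826 tested in this comparison (2.9%). The lower members it lists are Hist4h4, Hist1h2bn, Hist1h4a, Hist1h4c, Hist1h4d, Hist1h4h, Hist1h4j and Hist1h4m.

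**Figure D2:**
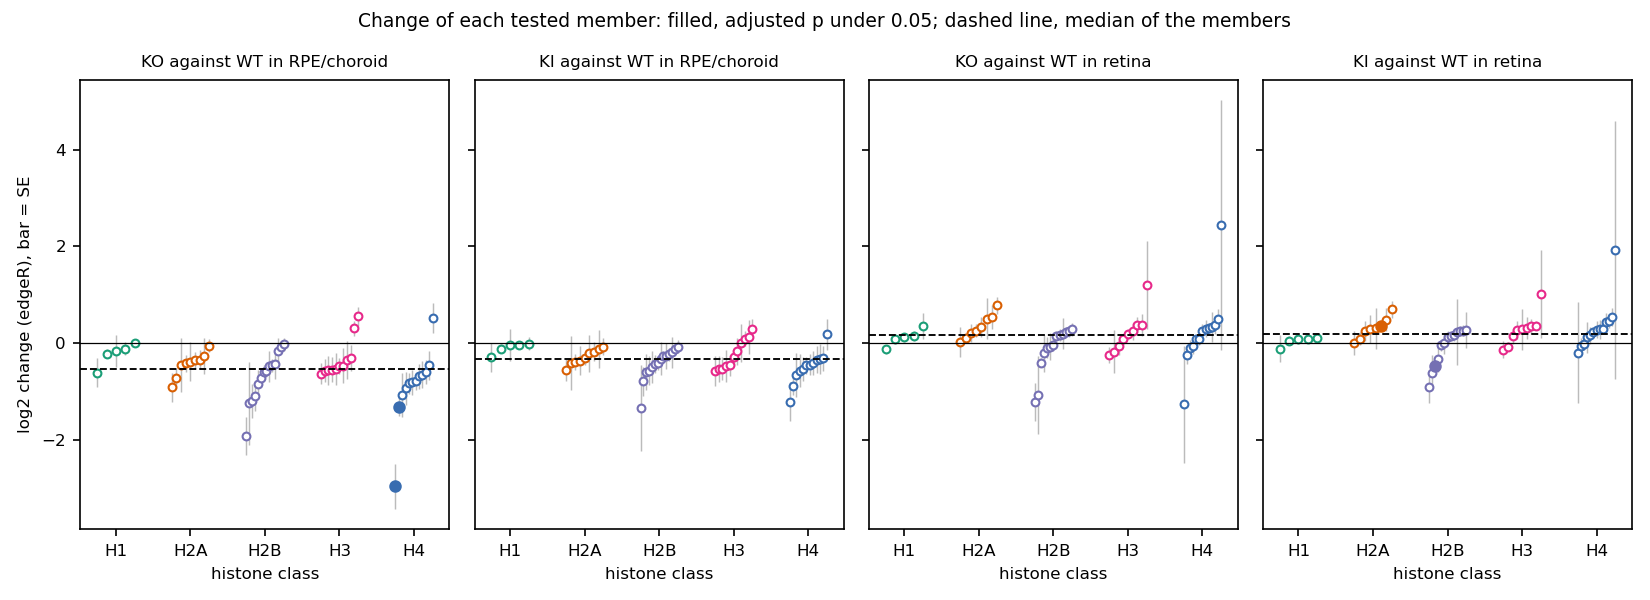
Log2 change (y axis) of each tested member with its SE, by histone class (x axis), for KO and KI against WT in RPE/choroid and in retina. Filled dots passed an adjusted p of 0.05, and dashed lines mark the members' medians, -0.54, -0.33, 0.16 and 0.20 from left to right. In the first panel 47 of 51 members lie below 0, with both filled dots in H4.

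Sums of some other gene lists also separated KO from WT in RPE/choroid. The listed short RNAs without a poly(A) tail, of which 7 were in the table and nearly all fragments were from Rmrp and Rpph1 (the RNA parts of RNase MRP and RNase P), summed to 4326, 3805 and 3146 CPM in KO RPE/choroid, 3992, 3721 and 6853 in KI and 6009, 4882 and 8695 in WT. Every KO library was below every WT library in this sum, and KI library 2, high in H4, was high here too. The separation was that of Rpph1, at 1442 to 1893 CPM in KO and 2936 to 5243 in WT. Rmrp overlapped, at 1703 to 2432 CPM in KO and 1944 to 3450 in WT. With the log2 of this sum as a term, an alternative added after seeing the data, no member passed in KO against WT, where 11 genes passed in all, 9 members reached an unadjusted p under 0.05 (9.31% of all genes did) and the median was -0.27. The sum itself separated the KO and WT libraries, so this fit cannot tell genotype from the sum. Whether the capture of short RNA differed between libraries was not tested. With the summed rod markers as a term instead, 4 members passed, all lower, where 368 genes (2.38%) passed in all, and the median was -0.47. Red blood cell genes were lower in KO as well: 6 of 6 tested had a log2 change below 0, at a median of -0.92, and none was called. They summed to 69.3 to 119 CPM in KO, 91.9 to 206 in KI and 140 to 188 in WT RPE/choroid, so KO lay below WT. Of the fibroblast, lens and rod markers, all 5, 11 and 8 tested were below 0 and none was called, at medians of -0.25, -0.78 and -1.32, while the sums of KO and WT libraries overlapped for each list. The rod sum was 5170 CPM in WT library 2. It was 209 and 334 in WT libraries 0 and 1, below every KO library at 438 to 953. Hbb-b1, a beta-globin gene, was at 0 in all KO RPE/choroid libraries. The 9 RPE markers summed to 9554 to 11240 CPM in KO, 10661 to 13633 in KI and 11623 to 12683 in WT RPE/choroid, so KO lay below WT here too. Among them, Ttr was at 3550 to 4286 CPM in KO against 4771 to 5169 in WT. Rgr was at 2165 to 2508 against 2640 to 2855. Slc6a20a lay above WT, at 168 to 178 CPM in KO against 128 to 162, and the other markers overlapped. For the remaining cell type lists the sums of KO and WT overlapped. The part of all these lists in the result was not tested beyond the fit with the rod term.

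**Figure D3:**
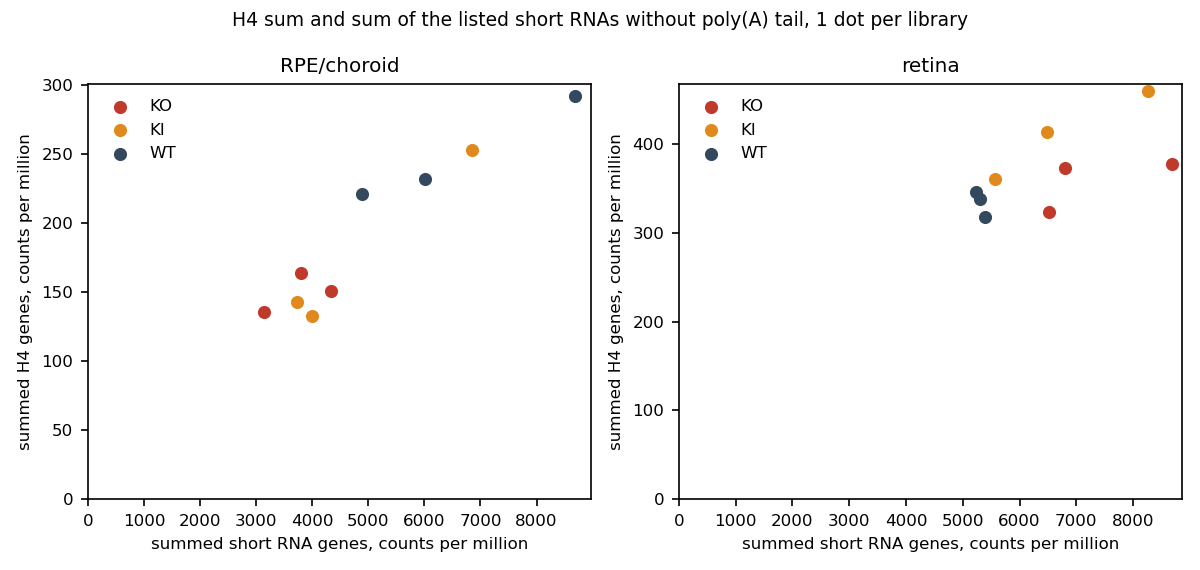
Summed H4 genes (y axes) against the summed short RNAs without poly(A) tail (x axes), both in CPM from 0, 1 dot per library, for RPE/choroid and retina. In RPE/choroid the KO dots lie at 3146 to 4326 on the x axis and 136 to 164 on the y axis, and the WT dots at 4882 to 8695 and 221 to 293.

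Few genes that make, process and package histones passed the test. Of 30 genes of S phase and cell division, all tested, 1 passed in KO against WT RPE/choroid: Pttg1, securin, was higher by 3.34 on the log2 scale (SE 0.15, edgeR adjusted p = 1.89e-05). Their median was -0.02, and they summed to 385 to 433 CPM in KO, 347 to 436 in KI and 364 to 390 in WT. Of 19 tested genes of histone gene transcription and mRNA processing, 1 passed: Sympk, a scaffold of the cleavage complex, was higher by 0.42 (SE 0.07, edgeR adjusted p = 0.0494). None of 11 variant histone genes passed, while 9 had a log2 change below 0 and 3 of these reached an unadjusted p under 0.05, at a median of -0.13. None of 10 histone chaperones passed either, with 8 below 0, 1 of them at an unadjusted p under 0.05, and a median of -0.08. H3f3a, which codes for the replacement histone H3.3, had a log2 change of -0.19 (SE 0.07, edgeR adjusted p = 0.223).

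KI RPE/choroid showed a smaller and less even shift. Of 51 members, 47 had a log2 change below 0 (background 51.4%) and the median was -0.33 against 0.00 for all genes. KI lay wholly below WT for 10 members (background 4.56%) and wholly above for none (background 5.28%). An unadjusted p under 0.05 was reached by 9 members, all lower (background 2.43%), and 0 passed after adjustment in edgeR (background 0.0647%), where DESeq2 called 1 member and 44 genes in all (0.286%). The 3 smallest p-values belonged to Hist4h4, Hist1h4j and Hist1h2be. Hist1h2be had 16.0, 19.6 and 25.7 CPM in KI and 28.3, 26.1 and 26.5 in WT, a log2 change of -0.41 (SE 0.15, edgeR adjusted p = 0.819). The sum over all members without KI library 2 differed from WT by -0.40 on the log2 scale, against -0.26 with it. KO and KI were set against the same WT libraries. The authors' deposited table calls Hist1h4h and Hist4h4 lower in KI than in WT RPE/choroid and no member higher, and calls 354 of 14800 genes tested (2.39%).

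Set directly against KO, KI RPE/choroid had a higher value for 40 of 51 members (background 51.3%), and 0 passed (background 0.453%); 4 reached an unadjusted p under 0.05 in edgeR (background 12.2%), and DESeq2 called 0 members and 313 genes in all. The median was 0.18. The smallest p-values were those of Hist1h4j, with a log2 difference of 1.74 (SE 0.49, edgeR adjusted p = 0.208), Hist1h2bn at 1.32 (SE 0.40, edgeR adjusted p = 0.235) and Hist1h2bg at 0.31 (SE 0.11, edgeR adjusted p = 0.306). Hist1h2bn, an H2B gene of the same cluster as Hist1h4j, had 13, 23 and 16 fragments in KO, 51, 39 and 18 in KI and 59, 104 and 44 in WT.

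**Figure D4:**
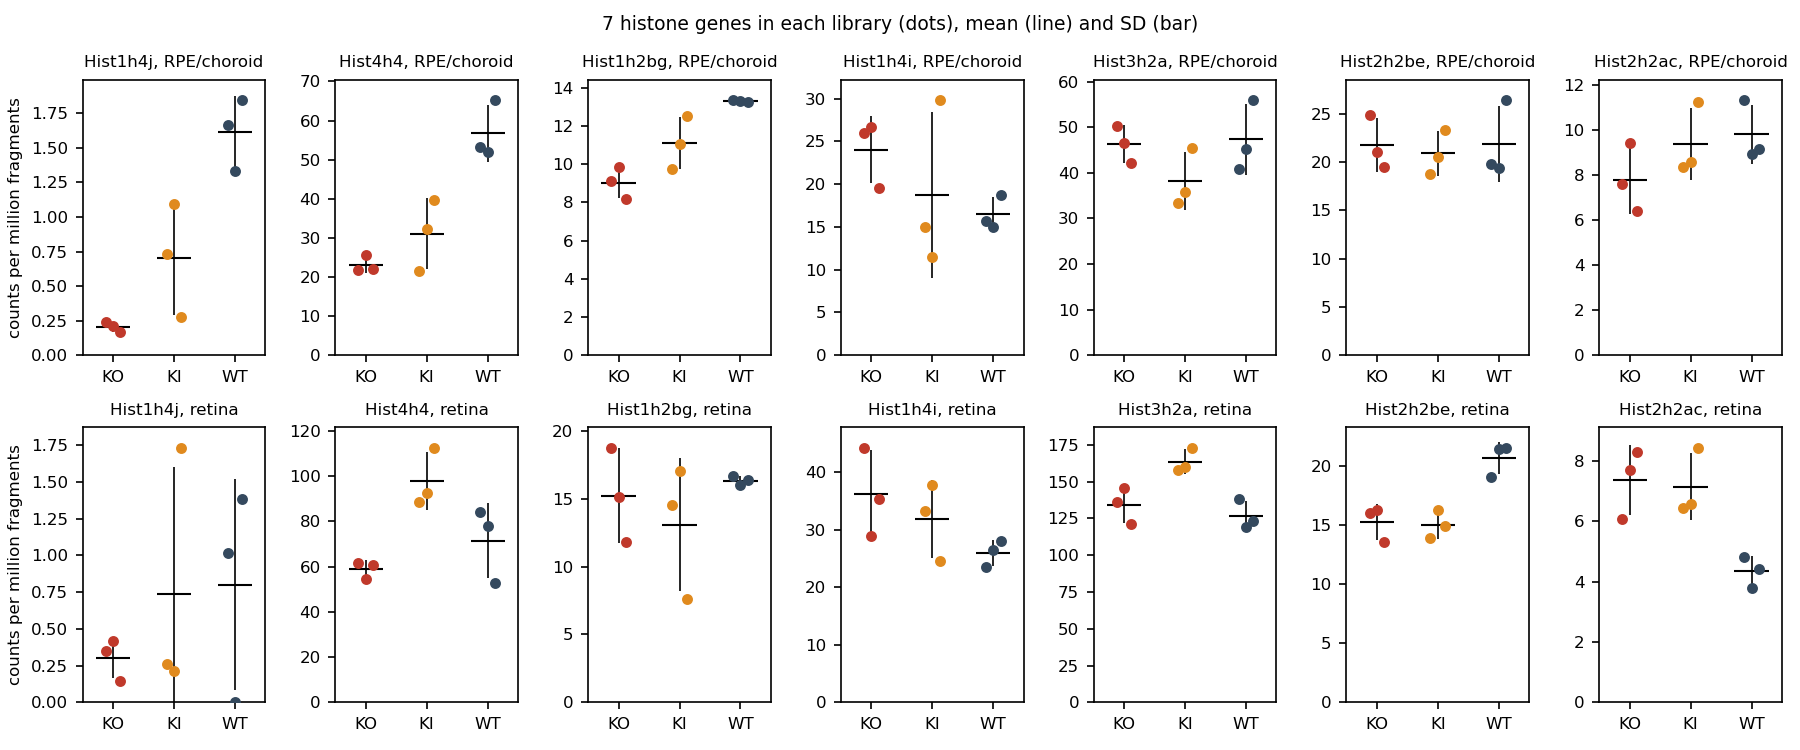
CPM (y axes, from 0) of 7 histone genes in KO, KI and WT libraries of RPE/choroid (top) and retina (bottom). Dots are libraries, lines are means and bars are SD (n = 3 each). Hist4h4 lies at 21.9 to 25.6 in KO and 52.0 to 65.2 in WT RPE/choroid, and Hist3h2a at 158 to 173 in KI and 119 to 138 in WT retina.

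In retina most tested members had a log2 change above 0 in KI and in KO, and few passed the test. Histone fragments summed to 1216, 1124 and 1220 CPM in KO, 1208, 1330 and 1398 in KI and 1158, 1125 and 1142 in WT, so all KI libraries were above all WT libraries and KO overlapped WT. By the difference of mean log2 CPM, KI was at 114.7% of WT, and KO at 103.9%. The H4 sums were 374, 324 and 378 CPM in KO, 361, 413 and 460 in KI and 347, 338 and 319 in WT. The short RNAs without a poly(A) tail summed to 6514 to 8690 CPM in KO and 5559 to 8270 in KI. They summed to 5239 to 5385 CPM in WT, so WT was lowest. Rpph1 was at 3662 to 6066 CPM in KO, 3206 to 4945 in KI and 2803 to 2878 in WT. Rmrp was at 2351 CPM in KI library 0, below WT at 2434 to 2503. The part of this sum in the result was not tested beyond the fit with it as a term, which cannot tell it from genotype.

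Markers of other cell types also moved with the mutants in retina. The 11 lens genes summed to 302 to 10060 CPM in KO, 195 to 4867 in KI and 25.2 to 439 in WT retina, and 11 of 11 had a log2 change above 0 in each mutant, at medians of 4.36 in KO and 2.93 in KI, with none called. Of 9 RPE markers, 7 were above 0 in each mutant at medians of 0.95 in KO and 0.68 in KI, and 4 were called higher in KO and none in KI. Their sums overlapped at 461 to 628 CPM in KO, 562 to 622 in KI and 576 to 633 in WT. Most of each sum was 1 gene, Rlbp1, at 362 to 465 CPM in KO, 460 to 508 in KI and 508 to 552 in WT, which lay below WT in KO. Of 6 tested pigment genes, 5 were above 0 in KO and 4 in KI, 1 was called higher in KO, and the list summed to 52.2 to 71.3 CPM in KO, 44.6 to 49.6 in KI and 23.6 to 46.7 in WT. Red blood cell genes were lowest in KO, at 5.08 to 6.23 CPM in KO, 7.50 to 10.01 in KI and 14.9 to 17.8 in WT, with 4 of 4 tested below 0 in KO, 1 of them called, and 3 of 4 in KI. No gene of the lens, RPE and pigment lists was at 0 in all 18 libraries. The part of these cell types in the retina values was not tested.

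In KI retina, 35 of 48 tested members had a log2 change above 0 (background 50.2%), and the median was 0.20. KI lay wholly above WT for 10 members (background 7.34%) and wholly below for 1 (background 7.99%), and 11 higher and 2 lower members reached an unadjusted p under 0.05 (background 4.25% each way). After adjustment 1 member rose (background 0.143%) and 1 fell (background 0.122%). Hist3h2a (mm9 chr11:58768187-58770176), an H2A gene, had 158, 160 and 173 CPM in KI, 136, 146 and 121 in KO and 138, 119 and 123 in WT. It rose in KI by 0.35 on the log2 scale (SE 0.07, edgeR adjusted p = 0.0447). Hist2h2be (mm9 chr3:96025044-96027661), an H2B gene with a long annotated transcript, had 13.9, 16.2 and 15.0 CPM in KI, 16.0, 16.3 and 13.5 in KO and 19.1, 21.4 and 21.6 in WT. Hist2h2be fell in KI by 0.47 on the log2 scale (SE 0.09, edgeR adjusted p = 0.0489), against the direction of most members. Leaving out 1 library at a time, Hist3h2a was called only without WT library 0 and Hist2h2be in no case. The members called then numbered 0 to 1, where 0.101% to 0.197% of all genes were called. Neither was called with the short RNA sum as a term, where 23 genes passed in all and the members' median was 0.07. That sum also separated the KI and WT libraries, so this fit cannot tell genotype from the sum.

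Hist2h2ac, an H2A gene that neighbours Hist2h2be on chromosome 3, had 6.08, 7.71 and 8.31 CPM in KO, 6.45, 6.57 and 8.45 in KI and 4.82, 3.79 and 4.41 in WT retina. Both mutants lay wholly above WT. The log2 change was 0.78 in KO (SE 0.18, edgeR adjusted p = 0.0564) and 0.70 in KI (SE 0.18, edgeR adjusted p = 0.157). Hist4h4 was unlike its pattern in RPE/choroid: it had 61.8, 54.7 and 60.8 CPM in KO, 88.8, 92.5 and 113 in KI and 84.1, 77.9 and 52.8 in WT retina. KI against KO had a log2 difference of 0.68 (SE 0.18, edgeR adjusted p = 0.166).

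In KO retina, 33 of 48 members had a log2 change above 0 (background 49%) at a median of 0.16, 6 lay wholly above WT (background 8.68%) and 2 wholly below (background 9.19%). No member passed in edgeR (background 0.98%), 9 reached an unadjusted p under 0.05 (background 12.5%), and DESeq2 called 2 members and 327 genes in all (2.23%). Hist2h2be had the smallest p, with a log2 change of -0.41 (SE 0.09, edgeR adjusted p = 0.0537), close to that in KI. Hist1h4m, an H4 gene, had 24.1, 23.7 and 22.5 CPM in KO, 20.5, 21.6 and 26.3 in KI and 17.7, 18.6 and 21.6 in WT, a log2 change in KO of 0.32 (SE 0.10, edgeR adjusted p = 0.198). Between KI and KO retina, 20 of 48 members were above 0 (background 49.4%), 0 passed in edgeR (background 1.26%), 6 reached an unadjusted p under 0.05 (background 11.7%) and DESeq2 called 2 members and 324 genes in all (2.21%). The smallest p-values there were those of Hist3h2a, with a log2 difference of 0.24 (SE 0.07, edgeR adjusted p = 0.107), and of the pseudogene Hist3h2bb-ps at -1.11 (SE 0.32, edgeR adjusted p = 0.140).

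The authors' deposited table calls Hist1h4c, Hist3h2a and Hist4h4 higher and Hist3h2bb-ps lower in KI than in WT retina, among 290 of 13760 genes tested (2.11%). The authors' deposited table calls Hist1h4i and Hist2h2ac higher in KO than in WT retina, among 474 of 13778 (3.44%).

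Among the retina lists, 2 of 23 tested genes of S phase and cell division passed in KO. Pttg1 was higher by 4.60 (SE 0.56, edgeR adjusted p = 0.0101) and Ccna2, cyclin A2, by 0.71 (SE 0.15, edgeR adjusted p = 0.0403). None of this list passed in KI against WT, and no tested variant histone, chaperone or processing gene passed in either mutant against WT.

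The difference between tissues in the mutant effect was tested as an interaction over all 18 libraries. For KO, 46 of 53 members had a more negative change in RPE/choroid than in retina (background 53%), at a median difference of -0.66 against -0.02 for all genes. An unadjusted p under 0.05 was reached by 23 members in that direction and 1 in the other (background 6.94% and 5.31%), and 0 passed after adjustment in edgeR (background 0.136%), while DESeq2 called 6, all more negative, and 242 genes in all (1.67%). Hist1h4m came closest, with a difference of -1.09 (SE 0.21, edgeR adjusted p = 0.0599), ahead of Hist2h2ac at -1.13 (SE 0.26, edgeR adjusted p = 0.107) and Hist1h2be at -0.86 (SE 0.21, edgeR adjusted p = 0.120). For KI, 45 of 53 members had a more negative change in RPE/choroid (background 57.2%) at a median of -0.59 against -0.03, 19 reached an unadjusted p under 0.05 (background 5.98%), 0 passed in edgeR (background 0.0555%) and DESeq2 called 2 members and 37 genes in all (0.245%). Hist4h4 had the smallest p, with a difference of -1.33 (SE 0.28, edgeR adjusted p = 0.210), followed by Hist3h2a at -0.68 (SE 0.16, edgeR adjusted p = 0.302) and Hist1h3f at -0.66 (SE 0.19, edgeR adjusted p = 0.599).

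RPE/choroid and retina differed in which histone genes they contained. Members summed to 606 to 932 CPM in the 9 RPE/choroid libraries and 1124 to 1398 in the 9 retina libraries, and the H2A genes to 58.3 to 88.6 CPM against 143 to 208. The tissues differ in most genes: 91.8% of 16222 passed the test, against 39 of 53 members, of which 11 were higher (background 46.9%) and 28 lower (background 45%) in RPE/choroid. The share of members called was thus below that of all genes. In these tests the tables' fragments were set against each other across tissues, with library sizes scaled by edgeR's TMM (trimmed mean of M-values) method.

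Hist3h2ba, an H2B gene of the small Hist3 cluster, was far more abundant in retina. Its fragments numbered 17, 8 and 23 in KO, 15, 5 and 17 in KI and 8, 16 and 77 in WT RPE/choroid, against 237 to 585 in the 9 retina libraries. The library with 77 was the WT library with 5170 CPM of rod markers. Hist3h2ba was lower in RPE/choroid by 4.63 on the log2 scale (SE 0.31, edgeR adjusted p = 1.74e-09). Its neighbours Hist3h2bb-ps and Hist3h2a were lower by 3.21 (SE 0.35, edgeR adjusted p = 1.51e-07) and 1.63 (SE 0.07, edgeR adjusted p = 1.65e-13). Among H4 genes, Hist1h4c fell by 2.68 (SE 0.20, edgeR adjusted p = 4.49e-09), with 2.39 to 10.7 CPM in RPE/choroid and 23.1 to 41.5 in retina. Hist1h4a fell by 2.19 (SE 0.16, edgeR adjusted p = 3.15e-09). Hist1h2bb, Hist1h1a, Hist1h2ac, Hist2h3c1 and Hist4h4 fell by 1.06 to 1.64 in the same fit. In WT libraries alone the difference of Hist4h4 was -0.27 (edgeR adjusted p = 0.214) and that of Hist2h2be 0.15 (edgeR adjusted p = 0.316), so neither was called there.

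A smaller set was higher in RPE/choroid. Hist1h3c, an H3 gene, had 50 to 134 fragments in each RPE/choroid library and 0 to 9 in each retina library, a log2 difference of 4.50 (SE 0.28, edgeR adjusted p = 5.37e-11). Hist1h2af had 9 to 39 fragments against 0 to 3, with a difference of 4.10 (SE 0.48, edgeR adjusted p = 2.89e-07). Hist1h3g had 19 to 73 against 0 to 4, with 4.04 (SE 0.33, edgeR adjusted p = 3.07e-09). Hist1h2bm, Hist1h1b and Hist1h2bh rose by 2.02, 2.00 and 1.85, and Hist1h2bn, Hist1h2ag, Hist2h2ac, Hist2h2be and Hist1h1d by 1.40, 0.75, 0.60, 0.41 and 0.28. No tested H4 member was called higher. In the same comparison 22 of 30 genes of S phase and cell division rose in RPE/choroid and 5 fell, at a median of 1.75, with Cdk1, the mitotic kinase, higher by 4.77 (SE 0.16, edgeR adjusted p = 1.24e-14). Of the 19 genes of histone transcription and processing, 4 rose and 13 fell, among them Lsm11, a part of the U7 snRNP, by 1.91.

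**Figure D5:**
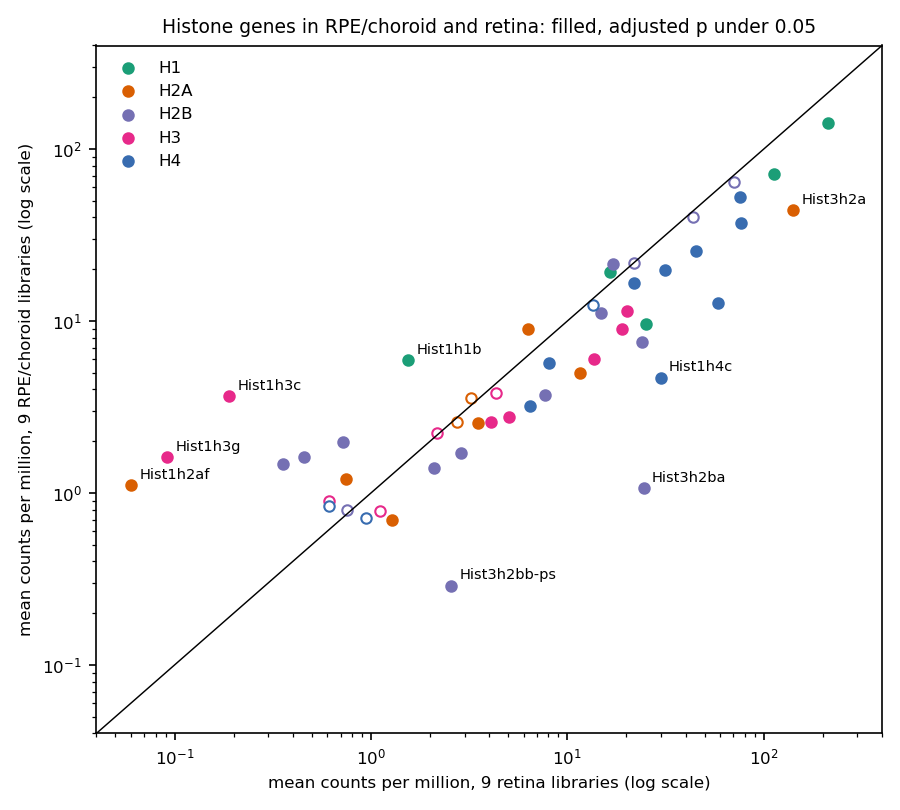
Mean CPM in the 9 RPE/choroid libraries (y axis, log scale) against the 9 retina libraries (x axis, log scale) for 52 members, with the line of equal values. Filled dots passed an adjusted p of 0.05, colours give the class, and 1 tested member at 0 in RPE/choroid is not drawn. Hist3h2ba lies far below the line at 1.07 against 24.5, and Hist1h3c above it at 3.67 against 0.190.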

How the data were processed

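Total RNA libraries from RPE/choroid and retina (3 libraries for each of 3 genotypes and 2 tissues, 18 in all) were read as deposited. Per the submitters' processing notes, TopHat, Bowtie2 and Cufflinks were used with the mouse build mm9, with no versions stated there. The deposited tables hold estimated counts of fragments per gene and library and FPKM, which the authors scaled within each tissue. The deposited tables of comparisons hold the authors' p-values and q-values. Of the deposited estimated counts, 98.43% were whole numbers in RPE/choroid and 98.52% in retina, and all were rounded.

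In R 4.3.3, counts of all genes went into the quasi-likelihood test of edgeR 4.0.16, and p-values were adjusted by Benjamini-Hochberg over all tested genes at a threshold of 0.05, with the 3 genotypes of a tissue in 1 fit and all 18 libraries in 1 fit for tissues and interactions. A low-count filter left 48 members in retina, 51 in RPE/choroid and 53 in the joint fit, so members that passed are not all members. CPM is per 1000000 assigned fragments, without further scaling. The main edgeR tests, and the counts of genes whose groups did not overlap, used library sizes scaled by TMM. The members and lists were chosen with earlier results of these data known. Named were members called between genotypes, the 10 largest rises and falls between tissues, the 3 smallest p-values in each comparison, the 3 highest mean FPKM in each class, members at 0, and up to 4 genes of each list. The alternatives were DESeq2 1.42.0, another scaling, no filter, a mean FPKM of at least 1, limma 3.58.1 on log2(FPKM + 1) and log2(FPKM + 0.1), the library number as a block, only the groups compared, and each library left out. In counts simulated with known changes, 71.6% of 2-fold changes were recovered for KO against WT in RPE/choroid (15376 genes) and 86.6% in retina (14603 genes). Of 1.5-fold changes, 56.7% were recovered in RPE/choroid and 67.2% in retina. False calls were 13 of 164 and 12 of 179. Figures were drawn with matplotlib 3.10.9.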

Additional observations from a re-analysis of the deposited data

Results flagged for a closer look

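Some sums of histone genes lay on opposite sides of WT in the KO libraries of the 2 tissues. The H4 genes without Hist4h4 summed in KO to a log2 difference from WT of -0.588 in RPE/choroid and 0.184 in retina, with every KO library below every WT library in RPE/choroid and above in retina. The members with transcripts of up to 1500 bases differed by -0.454 in RPE/choroid and 0.153 in retina in the same way. The difference between tissues was not tested for these sums.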

How the results depend on the processing

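No called result turned its direction under the alternatives run. DESeq2 called 9 members in KO against WT RPE/choroid, 1 in KI against WT RPE/choroid, 2 in KO against WT retina, 2 in KI against KO retina, 6 for the KO effect between tissues and 2 for the KI effect. Its shares called over all genes were 3.71%, 0.286%, 2.23%, 2.21%, 1.67% and 0.245%, in the same order. For KO against WT RPE/choroid, limma called 0 with either pseudocount (0.11% and 0.136% of all genes), the rod term gave 4 (2.38%) and the short RNA term 0 (0.0712%). For KI against WT retina, limma called 0 with either pseudocount (0.0612% and 0.0748% of all genes) and only the groups compared 0 (0.284%). There the short RNA term gave 0 (0.156%) and a mean FPKM of at least 1 gave 1 (0.264%). Without a filter, KO against WT retina had 2 (0.948% of all genes), and KI against KO retina had 1 with only the groups compared (1.09%). Summed FPKM in place of CPM gave log2 differences of -0.448 for KO against WT RPE/choroid, 0.138 for KO against WT retina and 0.05 for KI against KO retina. The short RNA sum separated mutant and WT libraries in both comparisons where it is given, so it cannot be told from genotype there. The cause of these changes was not tested.

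Leaving out 1 library at a time, the members called ranged from 0 to 4 for KO against WT RPE/choroid, 0 to 1 for KO and for KI against WT retina, 0 to 2 for the KO effect and 38 to 42 between tissues, and were 0 in KI against WT RPE/choroid, in KI against KO of both tissues and for the KI effect. Over all genes, 0.141% to 2.97% were called in KO against WT RPE/choroid. In retina 0.356% to 1.71% were called for KO and 0.101% to 0.197% for KI against WT. The shares were 0.055% to 2.06% for the KO effect and 91.1% to 91.8% between tissues. In the comparisons without a member called they were 0.0128% to 0.0895% in KI against WT RPE/choroid and 0.0122% to 0.0612% for the KI effect. In KI against KO they were 0.18% to 0.475% in RPE/choroid and 0.698% to 1.37% in retina. The log2 difference of the summed members ranged from -0.368 to -0.242 for KO against WT RPE/choroid, -0.403 to -0.166 for KI against WT RPE/choroid, -0.082 to 0.155 for KI against KO RPE/choroid, where its sign changed, 0.034 to 0.093 for KO against WT retina, 0.151 to 0.256 for KI against WT retina, 0.096 to 0.201 for KI against KO retina and -0.775 to -0.697 between tissues.

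With the library number as a replicate block, 0 members were called in KO against WT RPE/choroid (0.181% of all genes) and 2 in KO against WT retina (1.32%). That fit called 1 in KI against WT retina (0.306%) and 1 for the KO effect (0.117%). Correlations of same-numbered libraries' deviations ran from -0.17 to 0.22 in RPE/choroid and -0.52 to 0.26 in retina (9 pairs each). The RPE/choroid libraries numbered 2 were nonetheless alike in the length behind the FPKM of short genes, at 170 to 178 bases. Whether a number marks libraries handled together is not in the labels and was not tested. Genes of few fragments, such as Hist1h4j, and members with near-identical copies are limited by depth and by how fragments were assigned.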
